A study of Mus musculus with 28 samples.

Results

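The genes described here carry the names of the proteins of the cytoplasmic ribosome. They were taken from 2 tables of RPKM (reads per kilobase of exon, scaled to library size), 1 for mouse embryonic stem cells (mESCs) and 1 for embryoid bodies (EBs), by their names alone. A row counted as a member where its name was Rpl or Rps followed by digits and at most 1 letter and 1 further digit, or was Rplp0, Rplp1, Rplp2 or Rpsa. Of 37583 rows, 84 were members, each with 1 row per table: 33 named for the small subunit and 51 for the large subunit or its stalk. The members include 6 paralogs whose symbols end in l or l1 (Rpl3l, Rpl7l1, Rpl10l, Rpl22l1, Rpl39l and Rps27l) and Rps4y2, a copy related to Rps4x that GENCODE M21 lists as a transcribed processed pseudogene with no coding sequence.

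Ribosomal protein mRNAs are made from many unlinked genes that are kept near a common level, since each protein enters a ribosome as a single copy apart from the stalk proteins. Their transcripts typically open with an uninterrupted pyrimidine stretch, the 5′ terminal oligopyrimidine (TOP) motif, through which mTOR signalling and Larp1 control their translation. Mammalian genomes also hold a very large number of processed copies of these mRNAs, most of them pseudogenes, so that a short read from a ribosomal protein mRNA can match many places.

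The libraries were made from total RNA depleted of ribosomal RNA. The CJ7 line came in 4 genotypes (wild type, Eed null, and EloA edited to K754M or to K754R), each with 2 mESC and 2 EB libraries. Eed is a core subunit of the Polycomb repressive complex PRC2, EloA (Tceb3 in the files) is the elongation factor Elongin A, and K754M and K754R replace 1 lysine of Elongin A. The CCE line came as mESCs, wild type or null for EloA with 3 libraries each, and as 3 pairs of EB libraries, 1 of them wild type. In 2 of these pairs the labels contradict the names of the data columns: titles say EloA null and columns heterozygous in pair A, and the reverse in pair B, so neither was given a genotype. All mESCs had grown on feeder fibroblasts with LIF and 2i inhibitors and were depleted of feeders by plating, and all EBs were collected 5 days after LIF withdrawal. Nothing in the labels ties replicates to separate cultures or clones. The p-values below therefore measure the spread between libraries, which may be technical.

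From the value that 1 read gives, depth in megareads was estimated at 11 to 18.2 in CJ7 mESCs, 24.3 to 46.3 in CCE mESCs, 28.7 to 39.9 in CJ7 EBs and 23.6 to 30.9 in CCE EBs. Eed was at 22.1 to 22.3 RPKM in Eed null mESCs and 105 to 119 in wild type. Tceb3 was at 6.17 to 8.02 RPKM in EloA null CCE mESCs and 10.7 to 11.7 in their wild type. The 10 pluripotency markers summed to 1330 to 2113 RPKM in all mESC libraries. In EBs they summed to 758 and 814 in the Eed null libraries and to 29.7 to 164 in the others.

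Start sites show sequence features that part of the members share. RefSeq windows of GRCm38.p6, which run from 250 bases before the annotated start to 50 bases from it, were found for 63 of the 84 members (75 windows). A pyrimidine run of 5 or more bases that opens with C exactly at the start base was present in 13 of these 75 windows (17.3%) and in 2.51% of all 32851 windows. Within 5 bases on either side of the start base such a run opened in 41.3% of the members' windows and in 18.3% of all. The letters CGGAAG, searched on both strands because ETS family factors bind this core, were in 60% of the members' windows and 16.9% of all. These are letter matches and not measured sites. Below are 60 bases of 3 members with such a run and of the 2 paralogs whose RNA differed most between libraries. Position 41 is the start base, and capitals mark the pyrimidine run at the start and any CGGAAG in either direction.
Rpl15, chr14:18270967-18271026, minus strand: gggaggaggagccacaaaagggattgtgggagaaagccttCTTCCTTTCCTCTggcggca
Rpl38, chr11:114668540-114668599, plus strand: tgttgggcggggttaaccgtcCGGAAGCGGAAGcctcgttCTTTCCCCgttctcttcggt
Rps27, chr3:90213629-90213688, minus strand: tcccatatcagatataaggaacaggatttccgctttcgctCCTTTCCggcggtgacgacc
Rpl10l, chr12:66284382-66284441, minus strand: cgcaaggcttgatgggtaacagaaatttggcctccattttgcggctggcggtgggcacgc
Rpl39l, chr16:10170188-10170247, plus strand: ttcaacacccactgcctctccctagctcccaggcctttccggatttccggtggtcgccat

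The Rpl15 run is 13 bases long, the longest among the members, and those of Rpl38 and Rps27 are 8 and 7. Rpl10l and Rpl39l have no such run that opens at or within 5 bases of the annotated start, while the paralogs Rpl22l1 and Rps27l have 1 within 5 bases in at least 1 window. The paralogs Rpl3l and Rpl7l1 have none either, and 29 of the 63 members with windows have such a run within 5 bases. The Rpl39l window does hold the stretch cctttcc directly before the start base, which opens just outside that limit. All of these coordinates are on GRCm38, whereas the submitters' processing notes name mm9 for the deposited values.

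How far a member's reads can be told apart from those of other genes was measured from GENCODE M21 transcripts. For each member, 1 transcript was divided into all its overlapping 50-base words, and the share of words that also occur in transcripts of other genes was counted. The share ranged from 0 to 98.6% with a median of 53.2%. It was 0 for members such as Rpl3l and Rpl39l and 98.6% for Rps27. Of the members, 75 had at least 1 other gene that held 10% or more of their words, and for 70 such a copy was among the rows of the files. The row named Rpl24 carries the gene ID of Zbtb11 in GENCODE M21, so its values are uncertain.

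The next sequences show a paralog that reads can tell apart and copies that they mostly cannot. The coding sequence of Rpl39 is printed first, with that of the paralog Rpl39l under it and capitals at the bases of Rpl39l that differ. Then follows the end of the Rps13 coding sequence (bases 381 to 453), which is also that of Gm10159, the copy GENCODE calls Rps13-ps2, and the same stretch of Rps13-ps1 with capitals at its differing bases. The last line is the first 120 coding bases of Rps27, which Gm9846, now called Rps27rt, shares without a difference.
Rpl39: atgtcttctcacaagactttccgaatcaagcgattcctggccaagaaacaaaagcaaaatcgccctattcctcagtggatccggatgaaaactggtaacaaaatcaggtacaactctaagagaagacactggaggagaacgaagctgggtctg
Rpl39l: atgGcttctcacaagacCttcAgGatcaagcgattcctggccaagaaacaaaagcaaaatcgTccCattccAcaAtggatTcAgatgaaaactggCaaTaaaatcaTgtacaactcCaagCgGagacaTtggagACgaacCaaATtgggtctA
Rps13 and Gm10159: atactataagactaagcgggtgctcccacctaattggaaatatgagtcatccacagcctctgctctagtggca
Rps13-ps1: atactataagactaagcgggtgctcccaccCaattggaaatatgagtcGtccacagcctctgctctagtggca
Rps27 and Gm9846: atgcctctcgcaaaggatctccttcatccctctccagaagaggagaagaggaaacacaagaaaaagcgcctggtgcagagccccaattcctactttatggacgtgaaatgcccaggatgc

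Rpl39l differs from Rpl39 at 23 of 153 coding bases and Rpl10l from Rpl10 at 98 of 642, so most reads of these paralogs can be placed. Rps13-ps1 differs from Rps13 at 2 of 453 coding bases, both in the stretch shown. Gm10159 has none of 453 different and Gm9846 none of the 252 of Rps27. A read from outside the differing bases could have come from any gene of its family.

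The members made up 9.06 to 12.5% of all summed RPKM in EBs and 2.79 to 5.37% in mESCs. The 84 rows summed to 15096 to 23140 RPKM in CJ7 mESCs, 22786 to 26523 in CCE mESCs, 43467 to 67052 in CJ7 EBs and 47277 to 62479 in CCE EBs. The 172 rows named as ribosomal protein pseudogenes went the other way, with 3863 to 5310 RPKM in CJ7 mESCs, 10943 to 13029 in CCE mESCs and 365 to 1207 in EBs. The 2 tables were deposited separately and no test was run between them.

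**Figure D1:**
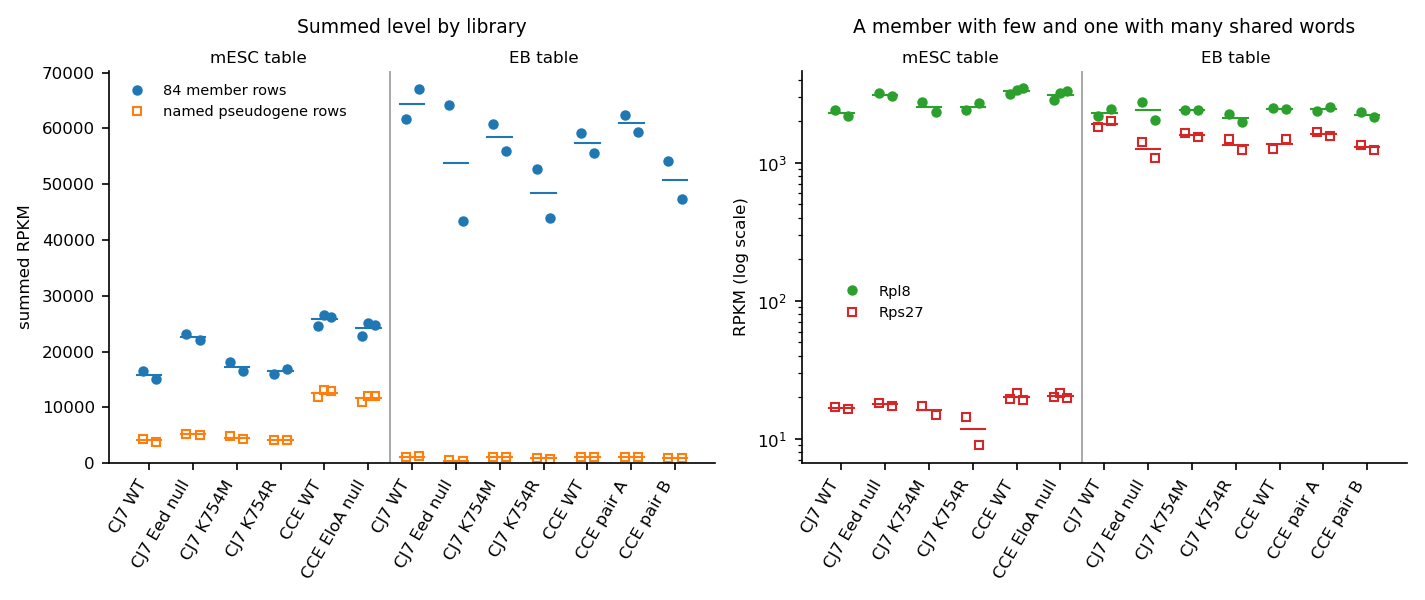
Points are libraries and short bars group means. Left, summed RPKM of the 84 member rows (circles) and of the 172 named pseudogene rows (squares), with the members between 15096 and 26523 in mESC libraries and 43467 and 67052 in EB libraries. Right, RPKM of Rpl8 and Rps27 on a log axis, with Rpl8 in the same range in both tables and Rps27 between 9 and 21.6 in mESC libraries and between 1090 and 1999 in EB libraries.

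The step between the tables was far from equal over the members. Rpl8, a protein of the peptidyl transferase region of the large subunit, shares 7.86% of its words and was at 2398 and 2176 RPKM in wild-type CJ7 mESCs and at 2190 and 2437 in the matching EBs. Rps27, a zinc finger protein of the small subunit, was at 16.9 and 16.6 RPKM in the mESCs and 1814 and 1999 in the EBs. Its copy Gm9846 was at 0.370 RPKM in CJ7 wild-type mESCs but at 416 in CCE wild-type mESCs, and at means of 23.5 and 15.2 RPKM in CJ7 and CCE wild-type EBs. Rps27 itself was at a mean of 20.1 RPKM in CCE wild-type mESCs. In mESCs the 2 lines thus differed in Gm9846 and little in Rps27.

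On the log2(RPKM + 0.5) scale, the median EB minus mESC difference of the 14 members that share under 20% of their words was 0.37 in CJ7 wild type and -0.19 in CCE wild type. It was 2.28 and 1.53 for the 26 members with 20 to 50%, 3.19 and 2.02 for the 23 with 50 to 75%, and 4.41 and 3.21 for the 21 with 75% or more. These limits were set after the values had been seen. Across the 84 members, which share libraries and tables, Spearman's rho between the shared percentage and the difference was 0.67 in CJ7 and 0.66 in CCE. With words of 36 bases it was 0.62 and 0.61, and with words of 75 bases 0.71 and 0.72. This is a description over genes. Whether the mESC and EB reads were aligned and counted alike is not given in the sources used here, so a change of these mRNAs with differentiation and a difference in how their reads were placed cannot be told apart.

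**Figure D2:**
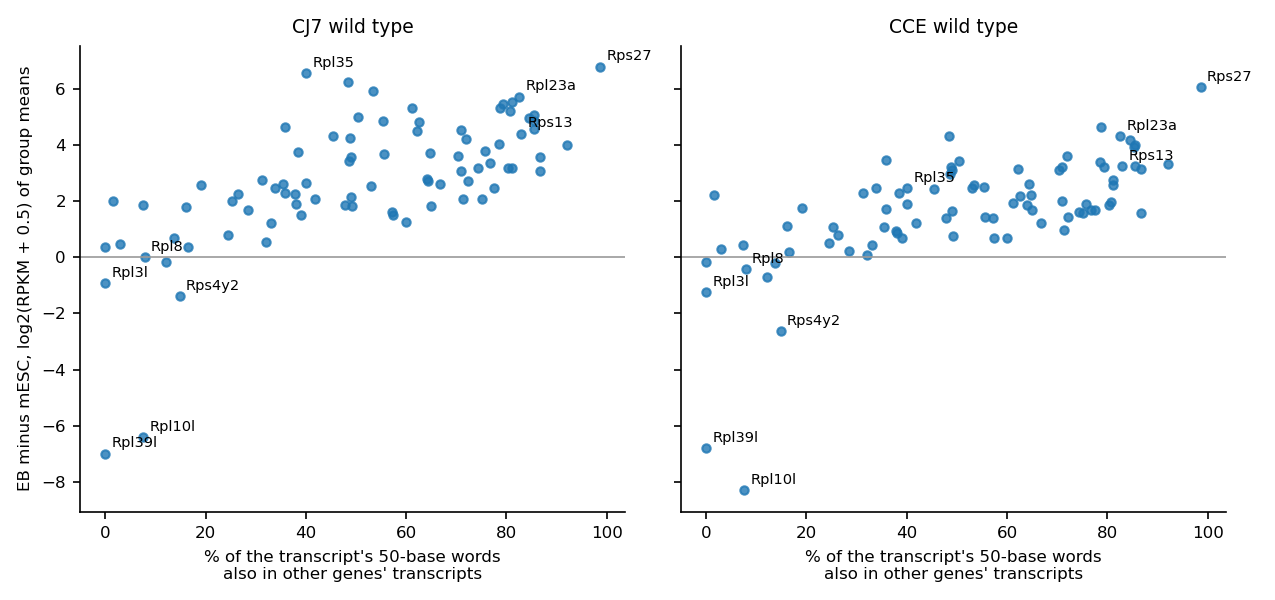
Each point is 1 of the 84 members, with the percentage of its 50-base words found in other genes' transcripts on the x axis and the EB minus mESC difference of wild-type group means, as log2(RPKM + 0.5), on the y axis. Members over 75% lie at a median of 4.41 (CJ7) and 3.21 (CCE), while Rpl10l, Rpl39l and Rps4y2, which share little, lie below 0.

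Over all 28 libraries Rpl8 had the highest mean log2 level of the members, followed by Rpl32 and the stalk protein Rplp1. Rpl3l, the striated muscle paralog of Rpl3, was lowest, at 0.0427 to 1.45 RPKM, followed by Rpl29 and Rpl10l. Rpl3l was the single member that did not pass the filter on low values (0.25 RPKM in at least 2 libraries) in the EB fits, so 83 members were tested in EBs and all 84 in mESCs. Rpl10l, Rpl39l and Rps27 had the widest ranges among members tested everywhere, at 8.65, 8.48 and 7.72 on the log2 scale.

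Comparisons within a table were tested with limma on log2(RPKM + 0.5), and a row was called at an adjusted p under 0.05 over all rows tested. Changes are first group minus second, with the standard error of the fit. In bulk samples fewer cells of a type and less RNA per cell cannot be told apart. The Eed null, K754M and K754R groups were each compared with the same wild-type libraries, and the K754M against K754R comparison uses the same libraries again.

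In Eed null CJ7 mESCs, 18 of the 84 members were higher and 1 was lower than in wild type, beside 5.32% of all 21012 rows called higher and 3.27% called lower. The members' median change was 0.34, against 0.05 over all rows tested. Rpl34, a large subunit protein, was at 110 and 108 RPKM in the Eed null libraries and 7.95 and 9.86 in wild type (change 3.55 ± 0.32, adjusted p = 0.00246, n = 2 per group). Rps3a, of the small subunit, was at 163 and 150 RPKM against 24.2 and 23.1 (2.70 ± 0.15, adjusted p = 0.000638). Rpl3, which lines the peptidyl transferase centre, was at 107 and 101 RPKM against 34.7 and 29.7 (1.68 ± 0.16, adjusted p = 0.00265). Rps2, near the mRNA entry channel, was at 333 and 298 RPKM against 127 and 105 (1.44 ± 0.24, adjusted p = 0.0182). For the first 3 the Eed null libraries lay above all 6 other CJ7 mESC libraries and above all CCE mESC libraries. The single member that fell was Rpl22l1, a paralog of Rpl22, at 147 and 146 RPKM against 289 and 237 (-0.83 ± 0.20, adjusted p = 0.0493).

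The other members called higher had changes of 0.47 to 1.23, among them the stalk proteins Rplp0 (460 against 206 RPKM) and Rplp1 (2813 against 1217), the small subunit members Rps7, Rps9, Rps10, Rps14, Rps15a and Rps21, and the large subunit members Rpl14, Rpl27a, Rpl30, Rpl31 and Rpl37a. Rplp2, the stalk partner of Rplp1, was at 94.0 RPKM against 70.5 and was not called. Leaving out a single Eed null or wild-type library left 3 to 5 members called. Rpl3, Rpl34 and Rps3a were the members called whichever of the 4 was left out.

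Copies of several of these members moved as well. Gm9000, which holds 39.9% of the words of Rps3a, was at 272 RPKM in Eed null mESCs and 377 in wild type. When every row that holds 10% or more of a member's words was added to the member, an alternative chosen after seeing the data, the change of Rps3a was 0.10 (adjusted p = 0.658) and that of Rpl3 0.26 (adjusted p = 0.419). Rpl14, Rpl37a and Rps10 also lost their calls, at adjusted p of 0.091, 0.0611 and 0.0575. With the named -ps rows alone added, Rps15a turned to -0.61 (adjusted p = 0.073). The count over all members was then 18 higher and 2 lower with the copies, and 18 higher and 3 lower with the -ps rows. The Rps13 family shifted between copies. Rps13-ps1 was at 0 and 0.162 RPKM in Eed null mESCs against 144 and 161 in wild type (-8.05 ± 0.30, adjusted p = 0.000238), while Gm10159 was at 198 RPKM against 3.66. In EBs the same 2 rows were at 1.11 against 235 and at 23.6 against 0.304. Rps13 itself was at 17.0 and 17.0 RPKM in Eed null mESCs and 6.88 and 10.6 in wild type, and was not called.

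**Figure D3:**
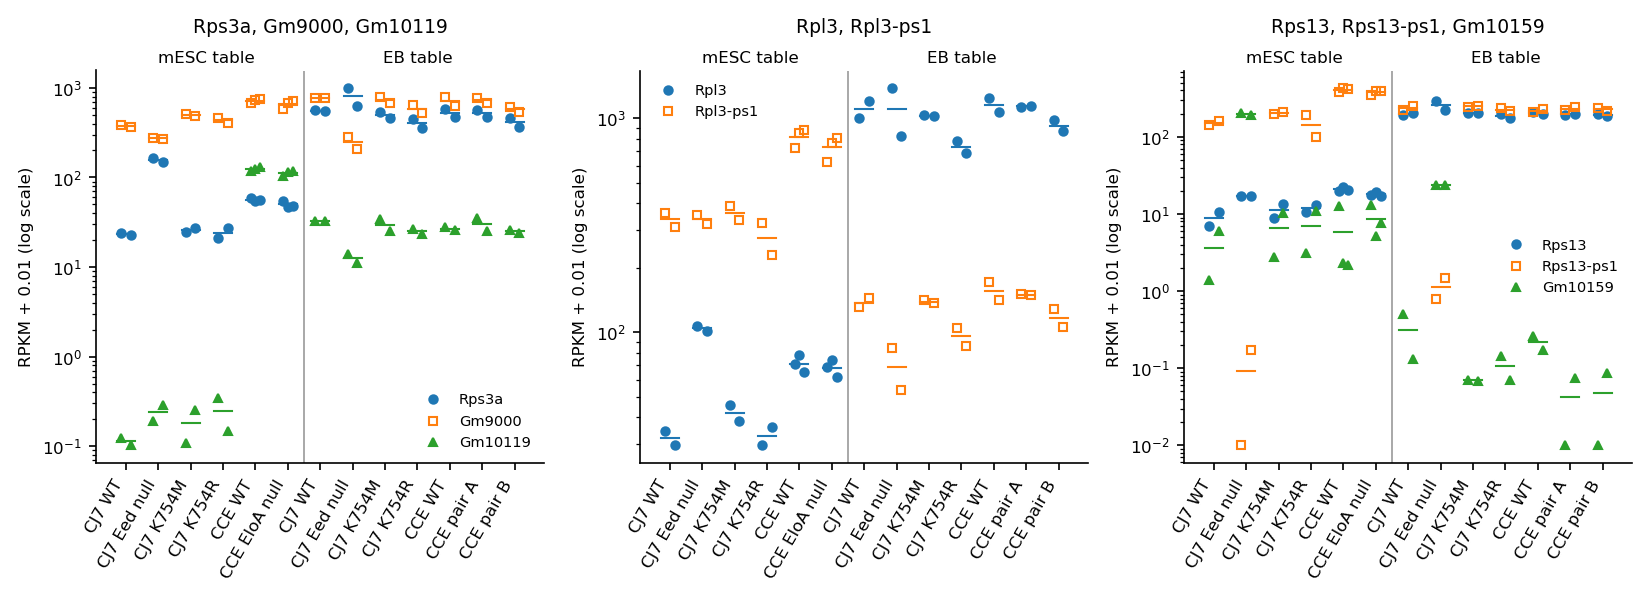
RPKM + 0.01 on a log axis by library (points, with group means as bars) for Rps3a, Rpl3 and Rps13 and copies that share their sequence. In Eed null mESCs Rps3a and Rpl3 lie above the other CJ7 mESC groups, and Rps13-ps1 and Gm10159 trade places in Eed null cells at both stages.

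Among the 125 named pseudogene rows tested, 12 were higher in Eed null mESCs, led by Rps15a-ps4 (82.2 against 3.36 RPKM, 4.43 ± 0.64, adjusted p = 0.0122), and 3 were lower. Of 21 other ribosome components and translation factors with TOP mRNAs, Tpt1, a translationally controlled protein, was higher (1.81 ± 0.26, adjusted p = 0.0121), as was Eef1d, and none was lower. The ribosome biogenesis factors had 2 of 84 higher, with Fbl, the rRNA methyltransferase fibrillarin, changed most (1.07 ± 0.19, adjusted p = 0.0211), and 2 lower, led by Nob1 (-1.02 ± 0.18, adjusted p = 0.0222). No mitochondrial ribosomal protein row of 75 was higher, and Mrpl22 led the 3 that were lower (-0.82 ± 0.13, adjusted p = 0.0165). Larp1, the TOP mRNA-binding protein, was the single one of 22 Myc and mTOR regulators called (13.0 against 25.3 RPKM, -0.93 ± 0.14, adjusted p = 0.0127). Of 8 snoRNA host RNAs, Snhg12 was higher (0.59 ± 0.13, adjusted p = 0.0425). Markers of feeder fibroblasts summed to 389 and 546 RPKM in the Eed null mESC libraries and 280 and 416 in wild type. Of 13 tested, 1 was called (Postn, lower). Germ layer markers, of which 6 were tested and none called (4 at an unadjusted p under 0.05), summed to 9.39 and 8.51 RPKM against 5.15 and 4.20. Of 10 pluripotency markers Dppa3 was higher and Sox2 lower. The part of these RNAs in the members' changes was not tested.

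Fewer members passed the test in the other mESC comparisons. For K754M against wild type no member was called in either direction, nor was any of the 21012 rows (0% higher and 0% lower). At an unadjusted p under 0.05 there were 11 members and 2103 rows. The members' median was 0.15 against 0.03 over all rows. Rpl10, a late-joining large subunit protein, was at 46.7 and 44.0 RPKM in K754M and 30.1 and 33.0 in wild type (0.52 ± 0.11, adjusted p = 0.200). Rpl28 was at 9.46 against 5.65 (0.69 ± 0.18, adjusted p = 0.254). The K754R mESCs had no member called, beside 0.0761% of rows higher and 0.0857% lower, with 12 members at an unadjusted p under 0.05 and a median of -0.02 against 0.01. The 2 members with the smallest p there were Rps24 (249 and 273 against 182 and 171 RPKM, 0.56 ± 0.12, adjusted p = 0.121) and Rps27a (18.8 and 19.2 against 25.7 and 32.0, -0.58 ± 0.16, adjusted p = 0.179). K754M against K754R mESCs likewise had no member called, beside 0% of rows higher and 0.00952% lower. There 14 members had an unadjusted p under 0.05, the median was 0.11 against 0.004, and Rpl10 (0.54 ± 0.11, adjusted p = 0.217) and Rpl39l (1.00 ± 0.21, adjusted p = 0.219) had the smallest p.

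In EloA null CCE mESCs, Rpl15 and Rps24 were higher and Rpl19 was lower than in wild type, beside 2.12% of 18460 rows called higher and 1.23% called lower. Rpl15, the large subunit protein with the long pyrimidine run shown above, was at 92.6, 91.9 and 89.3 RPKM in the null libraries and 62.0, 58.3 and 60.1 in wild type (0.60 ± 0.04, adjusted p = 0.00290, n = 3 per group). The groups did not overlap, and Rpl15 was the member called whichever of the 6 libraries was left out. Rps24 was at 330 to 357 RPKM against 259 to 282 (0.35 ± 0.06, adjusted p = 0.0294), and Rpl19 at 48.6 to 52.3 against 59.8 to 62.3 (-0.26 ± 0.05, adjusted p = 0.0343). The copies Rps24-ps3 (682 against 518 RPKM, 0.40 ± 0.06, adjusted p = 0.0174) and Gm10020, which holds 62.0% of the words of Rpl15 (121 against 83.8 RPKM), were also at higher levels in the null libraries.

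Small negative changes were common among the other members in this comparison. Of 84 members, 72 had a negative change, against 9869 of 18460 rows, and the median was -0.12 against -0.02. It lay between -0.15 and -0.0747 with 1 library left out, the latter without the first EloA null library. Here libraries with the same replicate number deviated together, so the fit with the replicate number as a block bears on the result. It called 30 members, 3 higher (Rpl15, Rps24 and Rpl10l) and 27 lower, beside 6.67% of rows higher and 5.72% lower. The lower ones included Rpl22l1 (-0.33 ± 0.03, adjusted p = 0.00609), Rpl9 (-0.38 ± 0.05, adjusted p = 0.0135) and Rpl36 (-0.32 ± 0.03, adjusted p = 0.00878). The EloA null libraries were also the shallower ones, at an estimated 24.3 to 34.7 megareads against 43.0 to 46.3, and all 13 fibroblast markers had a positive change (median 0.77, none called, 1 at an unadjusted p under 0.05), with sums of 240 to 713 RPKM against 133 to 497. The part of depth and of feeder RNA in these changes was not tested. Among the companion lists, Gnl3, a nucleolar GTPase, rose (285 against 194 RPKM, 0.56 ± 0.04, adjusted p = 0.00343). Gnb2l1, the small subunit scaffold protein also called RACK1, fell (447 against 565, -0.34 ± 0.06, adjusted p = 0.0419).

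In Eed null EBs, 19 of 83 members were lower and 3 were higher than in wild type, beside 11.2% of 19300 rows called lower and 19.2% called higher. The members' median was -0.34 against 0.05. Rpl22l1 was at 348 and 326 RPKM against 815 and 796 (-1.26 ± 0.14, adjusted p = 0.000676, n = 2 per group), and so was lower in Eed null cells at both stages. Its mESC call was lost with a pseudocount of 0.1 (adjusted p = 0.0534), without the filter (0.0752) and without the variance trend (0.0782). Rpl23a was at 140 and 128 against 293 and 342 (-1.24 ± 0.14, adjusted p = 0.000758). Rps27a, which is made as a fusion with ubiquitin, was at 276 and 235 against 555 and 539 (-1.10 ± 0.15, adjusted p = 0.00173).

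The 3 that rose were Rpl10l, Rpl39l and Rps4y2, which are described with the other paralogs below. The 2 Eed null EB libraries differed from each other over the members, with sums of 64280 and 43467 RPKM against 61648 and 67052 in wild type. Without the first Eed null library the members' median was -0.64, and without the second it was -0.05. The members called whichever of the 4 libraries was left out were the 3 that rose and 8 that fell, among them Rpl15, Rpl22l1, Rpl23a, Rpl29, Rpl38, Rpl39 and Rps27a. With each library centred on its median, 17 were lower and 3 higher, while all rows went from 3703 higher and 2164 lower to 2668 and 3442, with the median of all rows shifted by -0.17.

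Beside the 22.9% of members called lower in Eed null EBs, the named pseudogene rows had 22 of 111 lower (19.8%) and 2 higher, with a median of -0.27. The snoRNA host RNAs had 3 of 7 lower and none higher, led by 1500012F01Rik (89.0 against 154 RPKM, -0.76 ± 0.22, adjusted p = 0.0359). Ribosome biogenesis factors had 19 of 84 higher (22.6%, beside 19.2% of all rows) and 2 lower, with a median of 0.23. Rrn3, the factor that loads RNA polymerase I, was at 115 against 50.4 RPKM (1.16 ± 0.16, adjusted p = 0.002). Among mitochondrial ribosomal proteins 6 of 75 were higher, led by Mrpl16 (0.83 ± 0.16, adjusted p = 0.00701), and 10 lower, led by Mrpl45 (-0.88 ± 0.15, adjusted p = 0.00465). Npm1, a nucleolar chaperone with a TOP mRNA, fell (855 against 1786 RPKM, -1.06 ± 0.17, adjusted p = 0.00309), as did Tpt1 and Eif3e of the same list of 21. Of the 22 regulators, Mycn was higher (35.5 against 18.7 RPKM, 0.89 ± 0.21, adjusted p = 0.0163), as was Mxd3, and Eif4ebp1 was lower (-0.65 ± 0.14, adjusted p = 0.0113), as was Rps6kb1. Of 5 rows kept as signs of RNA quality and library makeup, Neat1 was higher (8.19 against 3.14 RPKM, 1.30 ± 0.36, adjusted p = 0.0300) and 5_8S_rRNA was lower (0.302 against 2.87 RPKM, -2.18 ± 0.65, adjusted p = 0.0403). Markers of cell state changed in the same libraries: 9 of 10 pluripotency markers were higher with a median of 3.39, led by Nr0b1 (33.4 against 0.209 RPKM, adjusted p = 1.74e-05). Of 11 germ layer markers, 8 were lower, led by Mesp1 (1.32 against 46.5 RPKM, adjusted p = 9.17e-05), and 2 were higher, Afp and Pax6. The part of cell composition and RNA quality in the members' changes was not tested.

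**Figure D4:**
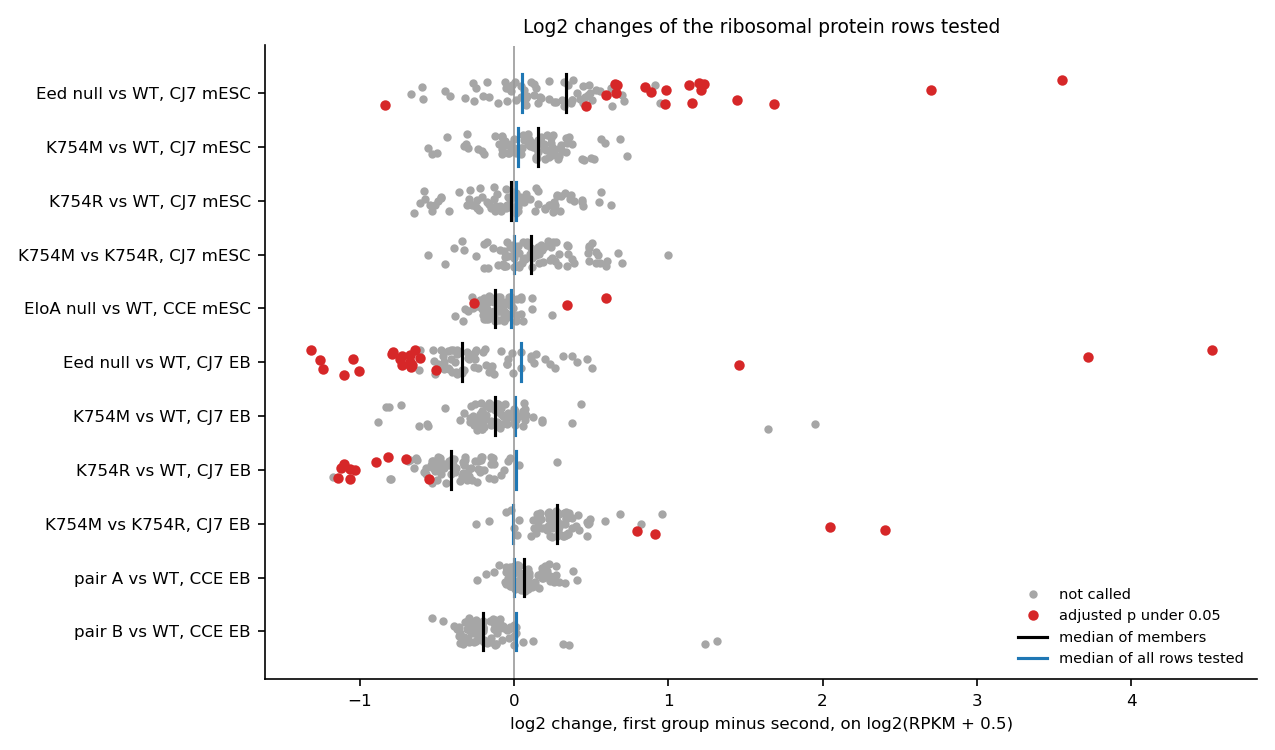
Log2 change of each member tested, on log2(RPKM + 0.5), in the 11 comparisons. Red points passed an adjusted p of 0.05, black bars are the members' medians and blue bars the medians of all rows tested. Red points lie mostly right of 0 in Eed null mESCs and mostly left of 0 in Eed null and K754R EBs.

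In K754R EBs, 10 of 83 members were lower and none higher than in wild type, beside 4.85% of 19300 rows called lower and 4.82% called higher. At an unadjusted p under 0.05 there were 27 members. The members' median was -0.40 against 0.01, and 81 of 83 had a negative change, against 9295 of 19300 rows. Rpl26 was at 558 and 429 RPKM against 1090 and 1066 (-1.14 ± 0.26, adjusted p = 0.0374). Rpl22 was at 197 and 166 against 387 and 402 (-1.12 ± 0.17, adjusted p = 0.0123). Rpl11, a protein of the 5S particle that can bind Mdm2, was at 126 and 108 against 235 and 266 (-1.10 ± 0.23, adjusted p = 0.0289). Rpl23a was at 164 and 139 against 293 and 342 (-1.06 ± 0.14, adjusted p = 0.0076).

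The others were Rps27a, Rpl38, Rpl19, Rpl35a, Rpl10a and the uncertain Rpl24 row, with changes of -1.06 to -0.55. Without that row 9 members were called. These calls rested on all 4 libraries: leaving out a single one left 0 to 3 called, and none of the 10 was called in all 4 cases. The K754R EB libraries summed to 52743 and 43996 RPKM over the members. Same-numbered K754R and wild-type EB libraries deviated together to some degree (r = 0.174). A fit with the replicate number as a block called more members, counted in the last section. The share of all rows called in that fit was not recorded.

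Companion lists are read here against the 4.85% of all rows called lower in K754R EBs, beside 12% of members. Of 7 snoRNA host RNAs 6 fell, with a median of -0.78, led by 1500012F01Rik (57.9 and 53.9 RPKM against 119 and 190, -1.42 ± 0.22, adjusted p = 0.0120). Of 84 biogenesis factors 6 fell (7.14%), led by Nhp2, a protein of H/ACA snoRNPs (-0.93 ± 0.19, adjusted p = 0.0263), and none rose. Of 75 mitochondrial ribosomal proteins 7 fell (9.33%), led by Mrpl38 (-0.83 ± 0.12, adjusted p = 0.0102). Npm1 was the single one of the 21 other TOP mRNAs called (4.76%; 801 against 1786 RPKM, -1.16 ± 0.17, adjusted p = 0.00947). Mxd4, an antagonist of Myc, rose (31 against 11.5 RPKM, 1.42 ± 0.20, adjusted p = 0.00916), as did Mxd1, and Eif4ebp1 fell (-0.65 ± 0.14, adjusted p = 0.0320).

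The K754R EBs also differed in cell markers. Of 12 fibroblast markers 8 were higher, led by Postn (9.58 against 0.339 RPKM, 3.56 ± 0.35, adjusted p = 0.00391), and their summed level was 108 and 78.1 RPKM against 55.0 and 36 in wild type. In K754M EBs it was 145 and 103, with 1 of the 12 called higher than in wild type. Set against K754R EBs, 3 of the 12 were lower in K754M and 1 was higher, with a median of -0.62. In K754R EBs against wild type, 2 of 11 germ layer markers were higher, led by Fgf5, and 3 were lower, led by Mesp1. Of 10 pluripotency markers 4 were lower, led by Pou5f1 (5.61 and 3.44 RPKM against 47.9 and 50.2, adjusted p = 0.00063). Their part in the members' changes was not tested.

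For K754M EBs against wild type no member was called, beside 0.181% of rows higher and 0.383% lower, and 10 members had an unadjusted p under 0.05. The median was -0.12 against 0.01. The smallest p among members were those of Rpl39l (1.65 ± 0.27, adjusted p = 0.0615) and Rpl23a (178 against 317 RPKM, -0.83 ± 0.14, adjusted p = 0.0649). With the replicate number as a block, Rpl23a was among the members called (adjusted p = 0.0494).

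Set directly against K754R EBs, K754M EBs were higher in 4 members, Rpl10l, Rpl39l, Rps4y2 and Rpl22, and lower in none, beside 1.9% of rows higher and 1.72% lower. Rpl22 was at 354 and 330 RPKM in K754M and 197 and 166 in K754R (0.92 ± 0.17, adjusted p = 0.0376). The median over members was 0.28 against -0.01, and 79 of 83 changes were positive. Without the second K754R library the median was 0.14, and without the first 0.41. Of the biogenesis factors 81 of 84 changes were positive, with 2 called, led by Mrto4 (38.4 against 18.2 RPKM, 1.06 ± 0.13, adjusted p = 0.0111). Pluripotency markers had 6 of 10 higher in K754M. Leaving out a single library left 0 or 1 of the 4 members called.

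In CCE EBs no member was called for pair A or pair B against wild type. Both pairs were compared with the same 2 wild-type libraries. For pair A 0% of 17735 rows were called in either direction, 2 members had an unadjusted p under 0.05, and the median was 0.07 against 0.003, or 0.0107 to 0.13 with 1 library left out (0.0107 without the second wild-type library). The smallest p belonged to Rpl38 (1023 against 772 RPKM, 0.41 ± 0.14, adjusted p = 0.708) and Rpl22l1 (725 against 560, 0.38 ± 0.15, adjusted p = 0.737). For pair B 0.107% of rows were higher and 0.0282% lower, 10 members had an unadjusted p under 0.05, and the median was -0.20 against 0.01, or -0.30 to -0.0970 with 1 library left out (-0.30 without the first pair B library and -0.0970 without the second). There 72 of 83 members and 79 of 84 biogenesis factors had a negative change. The smallest p belonged to Rpl39l (2.19 and 2.72 RPKM against 0.630 and 0.731, 1.32 ± 0.19, adjusted p = 0.0605) and Rpl10l (0.713 and 1.00 against 0.0634 and 0.0828, 1.24 ± 0.27, adjusted p = 0.124). By the depth estimate Rpl10l had 18 and 26 reads in pair B and 2 in each wild-type library. Its wild-type values were under the filter limit of 0.25 RPKM, so the size of its change depends on the added 0.5. Same-numbered libraries deviated together in this fit too. With the replicate number as a block, pair A still had no member called (0% of rows higher and 0% lower). Pair B then had Rpl39l higher (adjusted p = 0.0270) and Rpl11 (-0.53 ± 0.07, adjusted p = 0.0299) and Rpl35a (-0.39 ± 0.06, adjusted p = 0.0447) lower, beside 2.72% of rows higher and 1.24% lower. Fibroblast markers summed to 173 and 121 RPKM in pair B and to 67.8 and 62.2 in wild type.

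The paralogs Rpl10l and Rpl39l, autosomal relatives of Rpl10 and Rpl39 that are best known from testis, were expressed in every mESC group. Rpl10l ranged from 93.1 to 225 RPKM and Rpl39l from 113 to 274 over the 14 mESC libraries. In wild-type CJ7 mESCs Rpl10l was at 101 and 123 RPKM beside 30.1 and 33.0 of Rpl10, and Rpl39l at 125 and 179 beside 142 and 138 of Rpl39. Rpl10 shares 92.1% of its words with other genes and Rpl39 16.2%, so the mESC level of Rpl10 in particular is uncertain.

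In wild-type CJ7 EBs Rpl10l was at 0.622 and 1.01 RPKM and Rpl39l at 0.480 and 0.910. In Eed null EBs Rpl10l was at 35.6 and 24.3 (4.52 ± 0.34, adjusted p = 0.000127) and Rpl39l at 16.8 and 13.4 (3.72 ± 0.27, adjusted p = 0.000119). By the depth estimate these are about 1452 and 864 reads of Rpl10l in the Eed null libraries and at most 33 in a wild-type one. In K754M EBs Rpl10l was at 4.52 and 4.53 RPKM and Rpl39l at 3.81 and 2.65. Both lay between the wild-type and Eed null values. In K754R EBs they were at 0.818 and 0.184 and at 0.527 and 0.270. The order over the CJ7 EB groups was therefore Eed null, K754M and then wild type with K754R, whose libraries overlapped for both genes. K754M exceeded K754R by 2.40 ± 0.34 for Rpl10l (adjusted p = 0.0162) and by 2.05 ± 0.27 for Rpl39l (adjusted p = 0.0134). Against wild type the K754M differences missed the threshold, at 1.95 for Rpl10l (adjusted p = 0.0664) and 1.65 for Rpl39l.

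Rps4y2, which GENCODE lists as Rps4l, was also highest in Eed null and then in K754M. It was at 213 and 239 RPKM in Eed null EBs, 107 and 106 in K754M, 84.9 and 78.8 in wild type and 63.0 and 59.2 in K754R. The Eed null change was 1.46 ± 0.11 (adjusted p = 0.000142), and K754M exceeded K754R by 0.80 ± 0.11 (adjusted p = 0.0166). Pluripotency markers had the same group order in these EBs, with sums of 814 and 758 RPKM in Eed null, 161 and 164 in K754M, 110 and 133 in wild type and 30.8 and 29.7 in K754R. Rpl39, which was lower in Eed null EBs (298 and 287 against 480 and 488 RPKM, -0.73 ± 0.14, adjusted p = 0.00784), and Rpl10 (333 and 302 against 473 and 540, -0.67 ± 0.15, adjusted p = 0.0132) changed in the direction opposite to their paralogs. A negative change was not particular to them, since 66 of 83 members had one in this comparison. Rpl10, which shares 92.1% of its words, was not among the members called whichever library was left out.

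**Figure D5:**
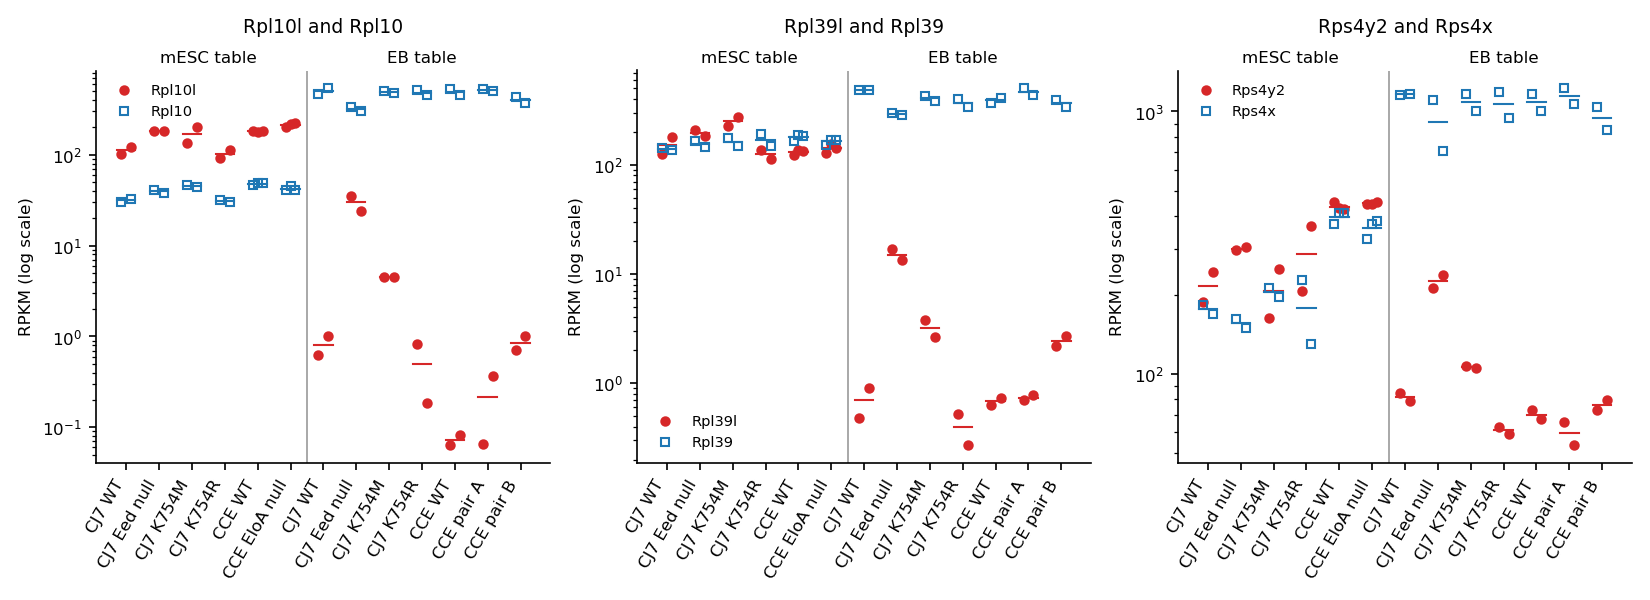
RPKM on a log axis by library (points, with group means as bars) for Rpl10l, Rpl39l and Rps4y2 (circles) and for Rpl10, Rpl39 and Rps4x (squares). In the EB table the 3 paralogs are highest in Eed null and next highest in K754M, where Rpl10l is at 4.52 and 4.53 RPKM.

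The other paralogs kept more even levels. Rpl7l1, a biogenesis protein related to Rpl7, was at 75.5 to 185 RPKM and Rps27l, a p53-responsive relative of Rps27, at 234 to 505 RPKM over all 28 libraries. Neither was called in a comparison. Rpl3l was at 0.0427 to 0.393 RPKM in EBs, an estimated 2.1 to 20.7 reads, was not tested there, and was not called in mESCs. Rpl22l1 and Rpl22 were both lower in Eed null EBs, and Rpl22 (300 and 223 against 387 and 402 RPKM, -0.61 ± 0.17, adjusted p = 0.0349) was not called in Eed null mESCs.

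A few other well-known members complete the account. Rps19 and Rpl5, mutated in Diamond-Blackfan anaemia, were called in no comparison without the replicate block, and neither were Rps6, the S6 kinase substrate, Rpsa, the laminin receptor homologue, nor Rps4x. Rps19 was at 83.4 to 176 RPKM in mESCs and 278 to 433 in EBs, and Rps6 at 7.51 to 21.9 and 261 to 456. With the block, Rps19, Rpl5, Rpl11 and Rpl38 were among the 27 lower in EloA null mESCs. Without it, Rpl11 was lower in K754R EBs alone. Rpl38, known from patterning defects in mice, was lower in Eed null EBs (762 and 579 against 1286 and 1377 RPKM, adjusted p = 0.00853) and in K754R EBs (720 and 591, -1.03 ± 0.20, adjusted p = 0.0240). Rplp0 and Rplp1 were called in no comparison but that of Eed null mESCs, and Rplp2 in none.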

How the data were processed

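Total RNA depleted of rRNA was measured in 28 libraries (14 mESC, 14 EB). The deposited values are RPKM, 1 table per stage with 37583 rows. CASAVA 1.7, STAR and the mm9 build are named, with no roles, per the submitters' processing notes. The counter, annotation, use of strand and handling of reads with several matches were not given in the sources used here. Each stage and line was fitted separately with limma-trend (limma 3.58.1, R 4.3.3) on log2(RPKM + 0.5) over rows with at least 0.25 RPKM in 2 or more libraries of the fit, with Benjamini-Hochberg adjustment over all rows tested and calls at 0.05. Members, lists and comparisons were chosen with earlier results of these data known.

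Data were simulated from the Eed null mESC, Eed null EB and EloA null mESC comparisons (20238, 18092 and 18315 rows tested). In each, 50 rows of higher level were given a change of each size. Changes of 1 on the log2 scale were called in 28%, 50% and 92% of these 50, and changes of 0.6 in 2%, 2% and 70%. Far fewer rows were changed than were called in the Eed null comparisons, so recovery in the data may differ. Depth was estimated from the value of 1 read in rows under 0.3 RPKM, with GENCODE M21 exon lengths, and the p-values, from 2 or 3 libraries per group, carry that limited precision. No 2 libraries were identical. Replicate numbers paired the CCE mESC libraries by their deviations from group means (r = 0.216 to 0.512 over 3 pairs) and the CCE EB libraries likewise (r = 0.183 to 0.425 over 6 pairs of libraries in the fit, 2 per comparison, whose deviations mirror each other in groups of 2), not by a statement in the labels. In the CJ7 fits 10 of 12 pairs in EBs (r = 0.0116 to 0.229) and 6 of 12 in mESCs (r = 0.0334 to 0.348) were over 0.1. The rest all held an Eed null library.

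Named were, per comparison, the 4 members called higher and the 4 called lower with the largest change (where none was called, the 2 with the smallest p), the paralogs and their parents, stalk proteins, a fixed set of well-known members, the extremes of level and range, and from companion lists the called row changed most in each direction. Some members that this rule names are not reported here. Rpl28, Rps13 and the copies were added after their values were seen. Alternatives changed the pseudocount, filter, centring, variance trend, replicate block, fit and rows summed, and left out each library. Python 3.11.15, pandas 2.3.3, scipy and matplotlib 3.10.9 made the other tables and plots.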

Additional observations from a re-analysis of the deposited data

How the results depend on the processing

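With each library centred on its median, the members' median change was 0.24 in Eed null mESCs and 0.12 in K754M mESCs, K754R EBs kept 3 calls, and all rows in Eed null mESCs went from 1118 higher and 687 lower to 806 and 918. Without the filter on low values K754R EBs had 3 calls, and without the variance trend EloA null mESCs had 1. A single fit per table called 39 members in Eed null mESCs, 6 in K754M, 4 in K754R and 6 in K754M against K754R mESCs. In EBs it called 4 in K754M, 19 in K754R, 8 in K754M against K754R and 1 in pair B. The share of all rows called in the single fits was not recorded, so these counts cannot be set against it. With the replicate number as a block, 30 were called in EloA null mESCs, beside 6.67% of rows higher and 5.72% lower. In pair B 3 were called, beside 2.72% of rows higher and 1.24% lower. The block called 2 in K754M EBs and 19 in K754R EBs. For these the share of all rows called was not recorded, so the counts cannot be set against it. With -ps rows added, Rps15a in Eed null mESCs reversed to -0.61. The cause of these differences was not tested.

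Leaving out 1 library gave 3 to 5 calls and medians of 0.29 to 0.37 in Eed null mESCs, and medians of 0.0757 to 0.22 in K754M, -0.0557 to 0.0518 in K754R and 0.0443 to 0.17 in K754M against K754R mESCs. It gave 1 to 3 calls in EloA null mESCs. In EBs it gave 11 to 43 calls and medians of -0.64 to -0.0486 for Eed null, medians of -0.20 to -0.0595 for K754M, 0 to 3 calls for K754R and 0 to 1 for K754M against K754R. With a library left out, calls of members were often lost, and 0 of the changes followed reversed in sign. Groups of 2 limit what could be called. A group left with 1 library was assumed to vary like the others.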
